A study of Mus musculus with 6 samples.

Results

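The genes described here drive and time cell division: 48 genes of the cell cycle and of DNA replication, listed by their known roles in G1, S phase and mitosis. Of these, 41 had a probe that the array's annotation gives to them alone, and the brightest such probe (highest mean log2 intensity over the arrays) stood for the gene; only Mad2l1 had more than 1. These 41 are part of 13840 genes named on the array. Ccne2, Cdk2, E2f1, Mcm3, Mcm7, Ccnb1 and Mki67 had no such probe and were not analysed here.

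RNA was taken from the presomitic mesoderm (PSM), the unsegmented mesoderm of the tail region, of mouse embryos at embryonic day 10.5. Wild-type littermates were set against embryos labelled Nrarp knockout, in which LacZ replaces the coding region of Nrarp, both from crosses between heterozygous mutants. Nrarp is a feedback regulator of Notch signalling, and the series as titled asks how Notch sets the period of the segmentation clock and the vertebral count. There were 3 one-colour arrays per genotype, numbered 1 to 3, made from 12 PSMs per genotype. No source used here gives the strain or says how the tissue was divided, so p-values reflect only sample-to-sample spread, which may be technical.

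The cell cycle is run by cyclin-dependent kinases, which need a cyclin to act and are held back by inhibitor proteins. D-type cyclins with Cdk4 and Cdk6 start the passage out of G1 by phosphorylating the retinoblastoma protein, which releases E2F factors and with them the genes of DNA replication. Cyclin A and cyclin B with Cdk1 then drive mitosis, and a checkpoint at the kinetochores holds back chromosome separation until every chromosome is attached. The PSM is a growing tissue whose cells divide while they wait to be taken into a somite.

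The values are linear probe intensities, scaled to an array median just under 1 (0.981 to 0.993). A value near 1 is therefore a dim probe, and levels of different probes cannot be set against each other. In all, 34 of the 41 genes lay above the array median on all 6 arrays and 30 above the 75th percentile on all 6. Nrarp itself read 318, 429 and 448 (wild type) against 14.3, 42.5 and 23.3 (knockout), a log2 difference of -4.03 (limma adjusted p = 0.428 without and 0.00042 with replicate number as a block); whether its probe lies in the replaced part was not given. All 10 measured PSM markers lay above the array median on every array, though not all were bright. Hes7 read 1.19 to 2.09 and Msgn1 2.80 to 4.30 on replicates 2 and 3. On replicate 1 Hes7 read 54.2 (wild type) and 64.1 (knockout), and Msgn1 50.2 and 50.1. The globin and other markers of primitive blood lay above the array median on every array too (8 of 8). So did 5 of 8 gut endoderm, 5 of 8 surface ectoderm and 4 of 8 endothelial markers, with 1 of each list below it on every array. Of the neural tube markers 3 of 9 lay above it on every array and 3 (Sox1, Pax6, Nkx6-1) below it on every array. No marker was at 0. The summed levels of the 6 marker lists overlapped between the genotypes, and in a bulk sample fewer cells of a type and less RNA per cell cannot be told apart.

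No cell cycle gene passed the test between knockout and wild type. With limma, 0 of the 41 genes passed an adjusted p of 0.05 (Benjamini-Hochberg over all 33012 probes), where 0.0% of all probes did, and 0 reached an unadjusted p under 0.05 against 0.657% of all probes. With the replicate number as a block, which pairs wild-type and knockout arrays of the same number, 0 of 41 passed as well (0.00606% of all probes, 2 in number). An unadjusted p under 0.05 was then reached by 2 genes, Ccnd1 (higher) and Cdkn1a (lower), or 4.88% of the 41 against 3.75% of all probes, and by 0 genes when the intensity trend was left out as well. The differences, knockout minus wild type on the log2 scale, were positive for 24 genes and negative for 17, with a median of 0.02 (0.01 under quantile normalization and 0.08 after centring on 75th percentiles, where the median of all named genes was 0.05). Over all probes the median was -0.01. The 3 pairs had the same sign in 9 of 41 genes, or 22.0%, against 23.7% of all probes. Pair signs rest on the numbers alone: over the 41 genes, deviations from the group means correlated by 0.684 and 0.641 within pairs 2 and 3, and by 0.758 and 0.760 with these numbers crossed.

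With the replicate number as a block, the intervals bounded the difference within 2-fold for most of these genes, and without the block for fewer. In the blocked fit the 95% interval of the difference lay within 2-fold either way for 33 of 41 genes, or 80.5%, and within 1.5-fold for 31. Over all named genes 46.0% lay within 2-fold. That share is not matched for level: 5517 of the 13840 named genes had a mean intensity up to 1, but 2 of the 41. Among the 30 genes above the 75th percentile on all arrays it lay within 2-fold for 29, the exception being Ccnd1. Without the block, 17 of 41 did (41.5% against 19.1% of named genes), since the differences between replicate numbers described further on then count as error. The other genes with intervals reaching past 2-fold were Cdkn1a, Cdkn1b, Rb1, Rrm1, Tyms, Cdk1 and Ttk, all of them dim on at least some arrays. These intervals hold for 1 gene at a time and are not adjusted for the number of genes. The blocked ones also rest on matching arrays by number, which the correlations of pairs 2 and 3 do not settle. For Pcna the interval was -0.19 to 0.21 with the block and -0.57 to 0.60 without it. For Ccnd2 it was -0.30 to 0.41 with it and -1.10 to 1.21 without it. As the spread between arrays may be technical, the intervals may not cover differences between embryos.

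**Figure D1:**
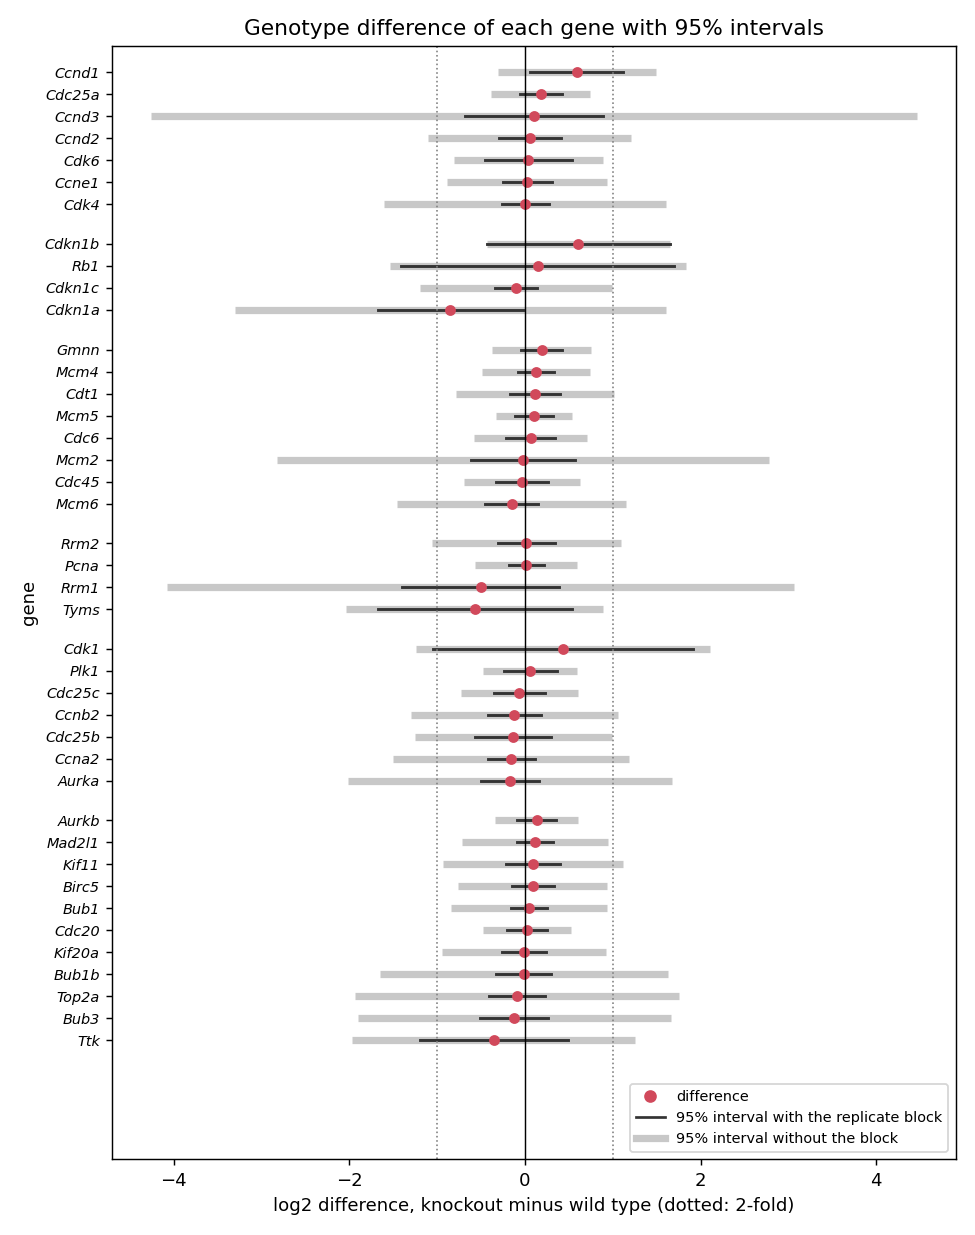
Log2 difference of knockout minus wild type for each of the 41 genes (points), grouped from the top as G1 cyclins and kinases, G1 brakes, licensing and helicase, fork and nucleotides, mitotic entry, and chromosomes, spindle and checkpoint; thin dark lines are 95% intervals with the replicate block, broad grey lines those without it, and dotted lines mark 2-fold. All dark intervals but those of Ccnd1 and Cdkn1a cross 0, and 33 of 41 lie between the dotted lines.

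None of the genes that push cells out of G1 passed the test. Their differences were positive in 7 of 7, where 49.5% of named genes were, with Ccnd1 at 0.59 and the others at 0.18 or less, and 6 of 7 under quantile normalization, where Cdk4 turned to -0.0049. The median was 0.05, and with single arrays left out it ran from -0.29 to 0.37. Ccnd1 encodes cyclin D1, a partner of Cdk4 and Cdk6 whose gene responds to growth signals. Its probe (684806) read 113, 69.8 and 203 (wild type) against 158, 184 and 189 (knockout). The knockout arrays lay close together and inside the wild-type range, which was wide: wild-type replicate 2 was the lowest and wild-type replicate 3 the highest of all 6. The log2 difference was 0.59 (95% interval 0.06 to 1.12 and limma adjusted p = 0.999 with the block), and the exact permutation p was 0.4 (two-sided). Within the pairs it was 0.48, 1.40 and -0.11, so the third pair went the other way; with single arrays left out the difference ran from 0.22 to 0.99.

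Cdc25a, a phosphatase that switches on cyclin-dependent kinases, read 84.6, 70.8 and 70.0 (wild type) against 98.0, 81.8 and 75.6 (knockout). The knockout array was the higher of each pair (by 0.21, 0.21 and 0.11), the groups overlapped, and the log2 difference was 0.18 (95% interval -0.06 to 0.42 with the block). Ccnd2, another D-type cyclin, read 36.2, 18.0 and 19.7 (wild type) against 47.8, 16.0 and 18.8 (knockout). Both genotypes had 1 high array, replicate 1, and the other arrays lay at 16.0 to 19.7. The log2 difference of Ccnd2 was 0.05 (95% interval -0.30 to 0.41 with the block). Cdk6, a kinase partner of the D cyclins, read 5.57, 3.82 and 4.14 (wild type) against 5.59, 4.16 and 4.11 (knockout) and differed by 0.04. Ccne1, the cyclin that takes over at the start of S phase, differed by 0.03, Cdk4 by 0.01 and Ccnd3 by 0.10.

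Genes that hold the cycle back did not share a direction: 2 leaned up and 2 leaned down. Cdkn1a encodes p21, the inhibitor induced by p53, and its probe (462938) read 11.5, 2.76 and 2.48 (wild type) against 11.7, 0.761 and 1.502 (knockout). Replicate 1 was nearly equal in both genotypes, and on replicates 2 and 3 the knockout arrays lay below both wild-type arrays, at levels near the array median. The log2 difference was -0.85 (95% interval -1.68 to -0.02 and limma adjusted p = 0.999 with the block). It was 0.03, -1.86 and -0.72 within the pairs, -1.29 without replicate 1 (limma unadjusted p = 0.0317, adjusted p = 0.995, without the block) and -0.03 without the knockout array of replicate 2 alone.

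Cdkn1b encodes p27, an inhibitor of G1 kinases, and is 1 of the 3 genes whose groups did not overlap. Its probe (704876) read 0.327, 0.362 and 0.472 (wild type) against 0.71, 0.561 and 0.498 (knockout), below the array median on all 6 arrays. Pair differences were 1.12, 0.63 and 0.08, and the log2 difference of 0.61 came with a wide interval (-0.44 to 1.65 with the block). Cdkn1c, the imprinted inhibitor p57, was bright. It read 152, 422 and 312 (wild type) against 145, 343 and 326 (knockout), with replicate 1 low in both genotypes, and differed by -0.10 (95% interval -0.34 to 0.14 with the block). Rb1, the retinoblastoma gene itself, was dim and scattered at 1.36, 0.614 and 0.538 (wild type) against 0.379, 0.77 and 2.09 (knockout); its interval, -1.41 to 1.70 with the block, bounds little.

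Groups without overlap were found for Mcm5, Aurkb and Cdkn1b, all higher in the knockout, and for 0 genes lower. That is 7.32% of the 41 genes in all, where 2.04% of all probes were higher and 1.74% lower without overlap, and the exact permutation p of each was 0.1, the smallest that 3 against 3 arrays allow.

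Genes that license origins and unwind DNA stayed within narrow bounds only in the blocked fit. All 8 measured genes had blocked 95% intervals within 2-fold. Without the block 5 of the 8 did, and the interval of Mcm2 ran from -2.82 to 2.78. Signs were 5 plus and 3 minus (7 and 1 after centring on 75th percentiles), around a median of 0.08. Mcm5, a subunit of the replicative helicase, read 287, 269 and 286 (wild type) against 293, 309 and 302 (knockout) (probe 376244). The wild-type arrays averaged 281 ± 9.92 (SD, n = 3) and the knockout arrays 301 ± 8.18 (SD, n = 3), so the spread within each group was small. The groups did not overlap, yet the log2 difference was only 0.10 (95% interval -0.11 to 0.32, limma adjusted p = 0.999 with the block). Gmnn encodes geminin, which binds Cdt1 and so prevents a second round of licensing. It read 98.3, 77.7 and 90.3 (wild type) against 117, 88.7 and 98.5 (knockout), with pair differences of 0.25, 0.19 and 0.13, but the groups overlapped.

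Mcm4, of the same helicase, read 286, 417 and 419 (wild type) against 309.7, 484 and 433 (knockout) and differed by 0.13, with every pair positive. Cdt1, which loads the helicase, read 48.7, 27.1 and 30.7 (wild type) against 56.7, 26.8 and 33.8 (knockout) and differed by 0.11. In both genes the replicate 1 arrays stood apart, on the low side for Mcm4 and on the high side for Cdt1. Mcm2 read 27.2, 4.26 and 2.72 (wild type) against 37.8, 2.53 and 3.16 (knockout) and differed by -0.02 (0.01 under quantile normalization). The rest, Cdc6 (0.06), Cdc45 (-0.03) and Mcm6 (-0.15), had intervals that crossed 0.

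The sliding clamp gene Pcna, which holds polymerases on DNA, was bright on every array and nearly equal between genotypes. It read 720.3, 1009 and 1139.7 (wild type) against 739.8, 1052 and 1096 (knockout), a log2 difference of 0.01 (95% interval -0.19 to 0.21 with the block; -0.05 under quantile normalization). Rrm2, the S phase subunit of ribonucleotide reductase, read 248, 128 and 150.2 (wild type) against 329, 101 and 149 (knockout) and differed by 0.02. Its partner subunit Rrm1 read 16.3, 1.99 and 1.24 (wild type) against 26.5, 0.816 and 0.651 (knockout). On replicates 2 and 3 the knockout arrays lay below the wild-type arrays and below the array median, on replicate 1 above, and the log2 difference was -0.51 with an interval of -1.40 to 0.39. Tyms, thymidylate synthase, was dim throughout at 1.49, 1.10 and 1.31 (wild type) against 2.17, 0.548 and 0.547 (knockout) and differed by -0.57 (95% interval -1.68 to 0.53 with the block), with the same split between replicate 1 and the rest; with single arrays left out it ran from -1.24 to -0.24.

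Of the genes of mitotic entry, 5 leaned lower and 2 higher in the knockout; their median of -0.12 ran from -0.45 to 0.24 with single arrays left out. Ccna2, cyclin A2, had 3 negative pairs (-0.08, -0.34 and -0.05), the only gene of the 41 to do so. It read 130.1, 44.4 and 49.2 (wild type) against 122.9, 35.0 and 47.6 (knockout), and the groups overlapped; the log2 difference was -0.16 (95% interval -0.42 to 0.11 with the block). Cdc25b, a phosphatase that activates Cdk1, read 12.2, 4.79 and 6.62 (wild type) against 10.4, 5.01 and 5.65 (knockout) and differed by -0.13. Plk1, a kinase of spindle assembly, read 140.2, 127 and 156 (wild type) against 161, 155 and 125 (knockout) and differed by 0.06. Cdk1, the mitotic kinase, had a dim probe at 2.29, 0.724 and 0.389 (wild type) against 0.897, 0.933 and 1.91 (knockout), with single pairs at -1.35, 0.37 and 2.30, so no difference could be resolved. Ccnb2 (-0.12), Cdc25c (-0.06) and Aurka (-0.17) had blocked intervals within 2-fold. Without the block the interval ran from -1.29 to 1.06 for Ccnb2 and from -2.01 to 1.67 for Aurka, and only that of Cdc25c stayed within 2-fold.

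Genes that act on mitotic chromosomes and the spindle split 6 up and 5 down in sign (8 and 3 after centring on 75th percentiles), around a median of 0.02. Aurkb encodes the kinase of the chromosomal passenger complex, which corrects faulty attachments. It read 169, 182 and 180.0 (wild type) against 187, 191 and 204 (knockout) (probe 326239), without overlap, higher by 0.15, 0.06 and 0.18 within the pairs. The log2 difference was 0.13 (95% interval -0.09 to 0.35, limma adjusted p = 0.999 with the block). Birc5, survivin, is a partner in the same complex and read 184, 103 and 121 (wild type) against 219, 102 and 122.9 (knockout), a difference of 0.09. The checkpoint genes Mad2l1 and Bub1 were positive in every pair but by little (0.11 and 0.05 in the mean). Mad2l1 read 170.3, 309 and 325 (wild type) against 185, 341 and 343 (knockout). Ttk, a kinase that starts the checkpoint, read 6.07, 3.47 and 2.74 (wild type) against 7.60, 1.22 and 2.98 (knockout), scattered most on the knockout side, and differed by -0.36 (95% interval -1.20 to 0.49 with the block). Bub1b, Bub3, Cdc20, Kif11, Kif20a and Top2a lay between -0.12 and 0.09.

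Other genes of the same pathways, 120 listed by role, gave the same count of passes: 0 of 96 measured, in both fits. Without the block 0 had an unadjusted p under 0.05; with it 4 did (4.17%), namely Brca1, Dnmt1 and Anapc1 (higher) and Pttg1 (lower, -0.23; named after its value was seen), and none of these passed over all probes (limma adjusted p = 0.999 each). Differences were positive for 45 and negative for 51, with a median of -0.02. Brca1, a repair gene that is switched on in S phase, read 3.48, 0.487 and 0.959 (wild type) against 5.46, 1.03 and 5.96 (knockout) and differed by 1.46. Dnmt1, which copies DNA methylation at the fork, read 2.87, 0.36 and 0.403 (wild type) against 2.35, 1.55 and 1.92 (knockout) and differed by 1.36. Several of these values lie close to the array median, and the groups overlapped in both genes. Anapc1, a scaffold subunit of the anaphase-promoting complex, was dim at 0.25, 0.449 and 0.335 (wild type) against 0.679, 2.02 and 0.364 (knockout) and differed by 1.24. Kif15, a spindle motor, read 2.55, 1.57 and 1.47 (wild type) against 2.32, 0.821 and 0.607 (knockout) and differed by -0.78. Of the G1 regulators, the inhibitor gene Cdkn2a read 1.10, 1.16 and 2.51 (wild type) against 1.6, 0.479 and 1.12 (knockout) and differed by -0.63. Myc, a growth regulator, was bright at 41.2, 33.9 and 32.6 (wild type) against 45.0, 39.3 and 39.7 (knockout), differed by 0.21 and was positive in every pair. In 0 of the 96 genes were the groups without overlap.

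The strongest pattern among the 41 genes ran across both genotypes and followed the replicate number. Arrays labelled replicate 1 stood apart from those of replicates 2 and 3, which the labels tie to no litter, day or batch, so the number is used here as a label only. In an F-test of the replicate number with genotype in the model (limma, 3 numbers), 26 of 41 genes passed an adjusted p of 0.05, or 63.4%, against 27.8% of all probes and 36.8% of named genes. Brighter genes passed more often. Of named genes with a mean intensity over 10, 61.0% passed, and of the 30 cell cycle genes at that level 20 did (66.7%), which is near that background. Without the replicate 1 arrays 0 of 41 genes and 4 of 33012 probes passed, and without replicate 2 or 3 it was 27 and 26 genes. The share of all probes that passed without replicate 2 or 3 is not given here, so those counts have no background beside them.

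**Figure D2:**
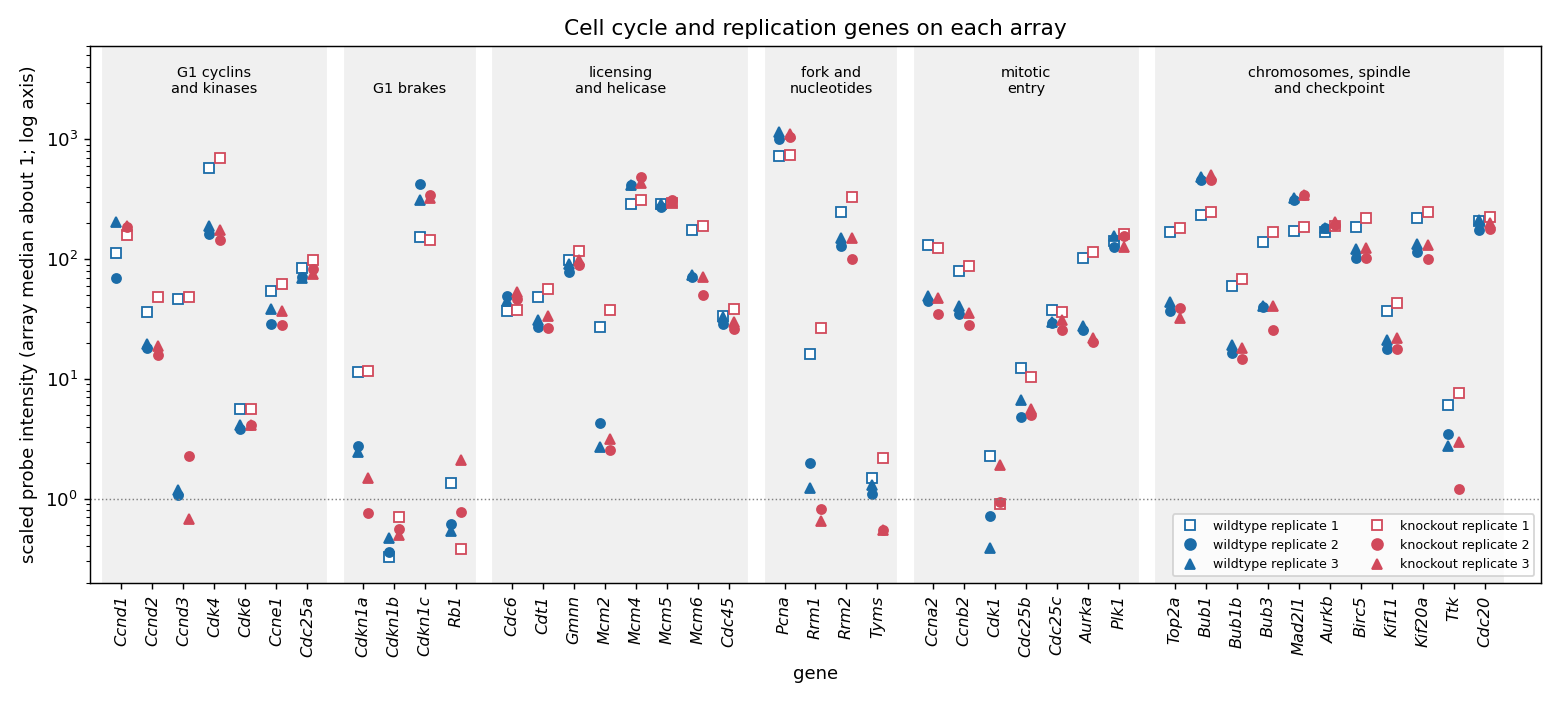
Scaled intensity of the 41 genes on each of the 6 arrays (log axis; dotted line at 1, about the array median), with wild type in blue and knockout in red and the replicate 1 arrays as open squares. In 26 genes both open squares lie above all other arrays and in 6 below them, and for most genes above 10 the genotypes lie close together within a replicate number. The share of named genes with such a split was not determined. In the mean, 78.5% of named genes between 1 and 10 were higher on replicate 1, and 34.2% of those over 200.

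Of the 18 mitotic genes, 11 passed the F-test with the higher level on replicate 1 (27.9% of named genes and 42.6% of those over 10). Top2a, the enzyme that untangles sister chromatids, read 169, 37.2 and 44.2 (wild type) against 182, 38.9 and 32.2 (knockout), 4.63-fold higher on replicate 1 (limma adjusted p = 7.11e-05). Aurka, a kinase of the centrosomes, read 102, 25.7 and 27.8 (wild type) against 115, 20.3 and 21.8 (knockout), 4.59-fold higher (limma adjusted p = 7.7e-05). The checkpoint gene Bub1b read 59.2, 16.5 and 19.0 (wild type) against 68.3, 14.7 and 18.0 (knockout), 3.75-fold higher. In each of these the arrays fell into a high pair and a low group of 4 with no value between. Ccna2, Ccnb2, Cdc25b, Bub3, Kif11, Kif20a, Birc5 and Ttk shared the direction, by 1.80-fold to 4.25-fold. Of the 11, 5 (Cdc25b, Kif11, Kif20a, Birc5 and Ttk) no longer passed after centring on 75th percentiles, and 2 (Cdc25b and Ttk) under quantile normalization.

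In G1 and S phase the same split appeared, with its extremes in genes that were dim on replicates 2 and 3. Ccnd3, the third D-type cyclin, read 46.2, 1.07 and 1.18 (wild type) against 47.8, 2.25 and 0.673 (knockout). It was bright on both replicate 1 arrays and near the array median on the other 4, a ratio of 39.9 that rests on those dim readings. Cdk4 was bright on every array and read 573, 161 and 189.7 (wild type) against 703, 145 and 174 (knockout), 3.80-fold higher on replicate 1 (limma adjusted p = 6.18e-05). Rrm1 and Mcm2, whose values are given above, were 19.4-fold and 10.3-fold higher, and Mcm6 2.79-fold.

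A smaller set went the other way. Cdkn1c, Mcm4, Pcna, Bub1 and Mad2l1 were lower on replicate 1 and passed the F-test. Bub1, a kinase of the spindle checkpoint, read 234, 455 and 484 (wild type) against 248, 455 and 502 (knockout), 1.97-fold higher on replicates 2 and 3 (limma adjusted p = 0.000338). Cdkn1c was 2.35-fold higher there and Pcna 1.47-fold. Genes of the same machinery did not move together: Bub1 and Mad2l1 were low where Bub1b and Bub3 were high, and Mcm4 was low where Mcm2 and Mcm6 were high. These genes also differed in level. Bub1, Mad2l1 and Mcm4 had mean intensities over 200, where 65.8% of named genes were lower on replicate 1. Mcm2 lay between 1 and 10 and Bub1b between 10 and 50, where 78.5% and 72.4% were higher. Mcm6 and Bub3 lay between 50 and 200, where 52.2% were higher. Mcm5, Aurkb, Plk1 and Cdc20 held nearly 1 level on all arrays, with replicate 1 differences between -0.09 and 0.18 on the log2 scale (-0.22 to 0.03 under quantile normalization and -0.87 to -0.60 after centring on 75th percentiles).

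Promoters of 4 genes whose arrays split by replicate number are shown as examples. Top2a, Cdk4 and Mcm6 were all higher on replicate 1, and Bub1 went the opposite way. Top2a and Cdk4 are among the 5 genes with the smallest p, and Mcm6 stands for S phase. Each is the stretch just before the RefSeq start of the gene (GRCm38.p6), 120 bases read 5′ to 3′ on the gene's strand. Capitals mark letters of an E2F-type motif (TTCCCGC or else TTGGCGC, and also TTCGCGC or else TTGCCGC), of the cell cycle homology region known as CHR (TTTGAA or else TTCGAA) or of the CCAAT box, on either strand. CHR elements with CCAAT boxes are known from mitotic promoters and E2F sites from S phase promoters.
Mcm6, chr1:128359706-128359825, minus strand: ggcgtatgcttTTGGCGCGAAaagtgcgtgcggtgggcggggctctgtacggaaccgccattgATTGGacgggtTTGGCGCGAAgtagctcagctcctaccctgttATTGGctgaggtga
Top2a, chr11:99024190-99024309, minus strand: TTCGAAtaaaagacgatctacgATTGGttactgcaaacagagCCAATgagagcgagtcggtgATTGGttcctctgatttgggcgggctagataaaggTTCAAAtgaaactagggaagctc
Bub1, chr2:127831860-127831979, minus strand: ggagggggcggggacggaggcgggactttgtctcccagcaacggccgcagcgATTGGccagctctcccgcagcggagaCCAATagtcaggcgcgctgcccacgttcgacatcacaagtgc
Cdk4, chr10:127063415-127063534, plus strand: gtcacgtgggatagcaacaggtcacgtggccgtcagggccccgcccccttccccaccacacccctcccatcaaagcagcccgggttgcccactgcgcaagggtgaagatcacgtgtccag
The Mcm6 stretch held 2 E2F-type runs, each an overlap of 2 of the motifs, and 2 CCAAT boxes. The Top2a stretch held 2 CHR matches and 3 CCAAT boxes, Bub1 held 2 CCAAT boxes, and Cdk4 held no match to these letters.

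Over the 250 bases before the start, 37 of the 48 genes had an entry in the RefSeq promoter table, as had 11164 of the 13840 named genes; Ccnd1, Ccnd2, Ccne2, Cdkn1c, Rb1, Gmnn, Mcm4, Ccna2, Cdc25c, Aurkb and Kif20a had none. An E2F-type motif was present in 6 of 12 S phase genes, in 2 of 9 G1 genes and in 3 of 16 mitotic genes, and in 12.8% of named genes and 9.01% of all 27025 genes of the table. A CHR match was present in 8 of 16 mitotic genes, in 3 of 12 S phase genes and in 0 of 9 G1 genes, and in 17.1% of named genes and 19.6% of all. All 11 promoters with a CHR match also held a CCAAT box, a pairing found in 6.22% of named genes and 7.0% of all. A CCAAT box, with or without CHR, was present in 27 of 37 (73.0%) against 39.7% of named genes and 37.5% of all. Among measured genes with both replicate 1 arrays above all others, 7 of 22 promoters held a CHR match; it was 0 of 4 among those with both below and 2 of 5 among those that overlapped. These are descriptions of letters in a window, not of bound sites.

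The direction depended in part on level and scaling. The median log2 difference of replicate 1 was -0.72 among named genes with a mean intensity up to 1, the largest class with 5517 genes. Between 1 and 10 it was 1.04, between 10 and 50 it was 0.58, between 50 and 200 it was 0.03, and over 200 it was -0.26. Of the 7 cell cycle genes over 200, 6 were lower on replicate 1, where 65.8% of named genes were. Between 50 and 200, 11 of 13 were higher (10 of 13 under quantile normalization), where 52.2% of named genes were (41.5%), and their median was 0.84 (0.71). The arrays also differed in range: the 75th percentile stood 42.7-fold (wild type) and 56.9-fold (knockout) above the 10th on replicate 1, and 12.4-fold to 16.0-fold on the other arrays. The part of this range in the result was not tested.

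Over all 41 genes, replicate 1 was higher in 31 and lower in 10 as deposited, higher in 27 and lower in 14 under quantile normalization, and higher in 22 and lower in 19 after centring on 75th percentiles, which moves the median of all named genes from 0.07 to -0.71. Relative to that median the median of the cell cycle genes stood 0.77 higher as deposited and 0.45 higher with quantile normalization. Centring moves all probes of an array alike, so it cannot change this gap. The gap is not matched for level: 5517 named genes had a mean intensity up to 1, where 2 of the 41 genes lay. The F-test passed 26, 24 and 26 genes under these 3 scalings, where it passed 36.8%, 31.3% and 54.0% of named genes and 27.8%, 23.6% and 53.5% of all probes. In all, 17 genes passed under all of them, 12 higher and 5 lower on replicate 1 each time. The share of all probes or named genes that passed under all 3 was not determined, so this count has no background beside it.

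**Figure D3:**
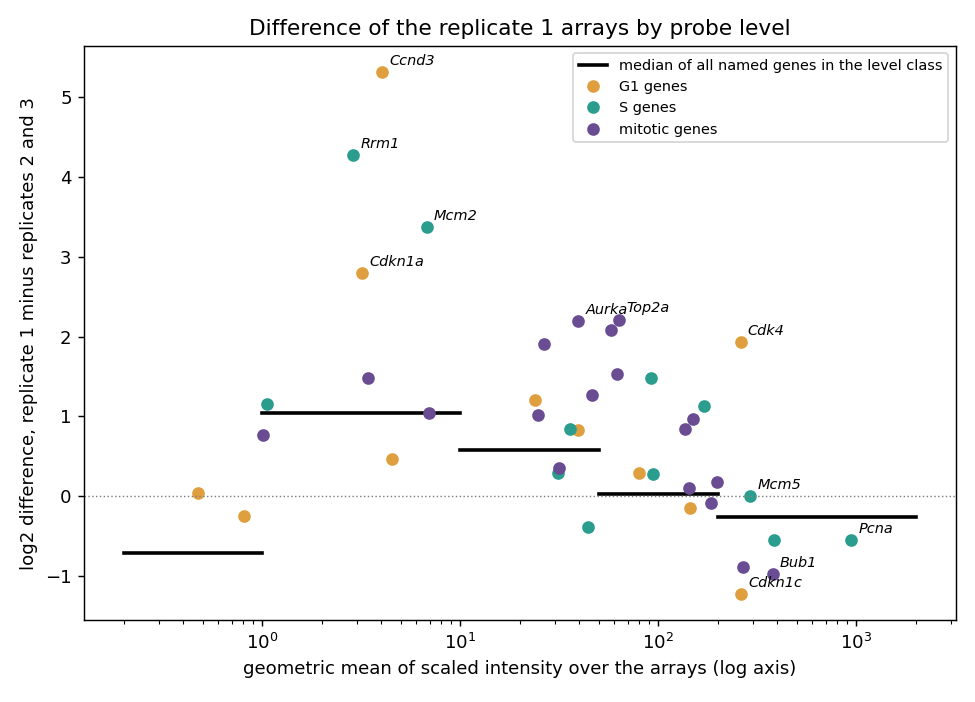
Log2 difference of the replicate 1 arrays from replicates 2 and 3, mean of both genotypes, against the geometric mean intensity of each of the 41 genes (log axis); colours give the stage, and black bars the median of all named genes in 5 level classes. Ccnd3, Rrm1 and Mcm2 lie highest, 11 of the 13 genes between 50 and 200 lie above 0, and Cdkn1c and Bub1 lie lowest.

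The split was alike in both genotypes. The difference of replicate 1 from the others had the same sign in wild type and knockout in 36 of 41 genes. The share of all probes with the same sign was not determined, so this count has no background beside it. Deviations of the replicate 1 arrays correlated between the genotypes by 0.757 over all probes and by 0.850 over the 41 genes, so the likeness was not particular to these genes. Top2a was 2.06 higher on the log2 scale in wild type and 2.37 in the knockout, Cdk4 1.71 and 2.15, Cdkn1c -1.26 and -1.21, and Mad2l1 -0.89 in each. The 5 with opposite signs were Cdk1 (2.11 and -0.57), Rb1 (1.24 and -1.74) and Cdkn1b, all dim, and Mcm5 and Plk1, which hardly moved.

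**Figure D4:**
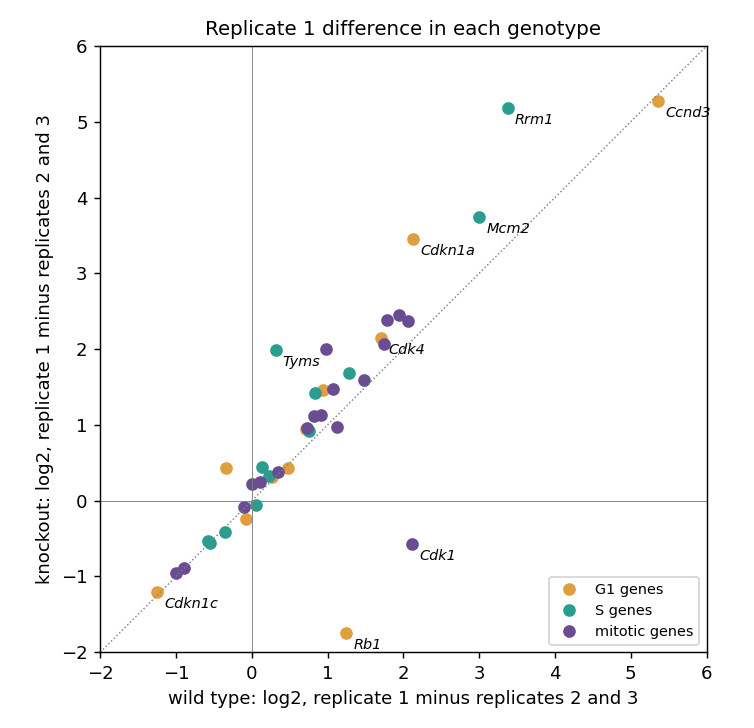
Log2 difference of replicate 1 from the mean of replicates 2 and 3 in wild type (horizontal) and in the knockout (vertical) for the 41 genes, coloured by stage, with the dotted line marking equal values. Most points lie near the line from Cdkn1c at the lower left to Ccnd3 at the upper right, while Cdk1 and Rb1 lie below it.

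Marker genes of tissues moved with the replicate number too. The summed level of 8 gut endoderm markers was 249 to 270 on replicate 1 and 101 to 124 on the others, with 4 markers higher on both replicate 1 arrays than on all others and 0 lower. Epcam, Cdx2 and Cldn6 carried this sum (96.6, 89.1 and 51.8 on wild-type replicate 1), while Foxa1 lay below the array median on every array. The sum therefore does not identify a tissue. The 8 surface ectoderm markers summed to 239 to 244 against 162 to 183, with 4 higher and 0 lower, and the 8 endothelial markers to 136 to 138 against 98.3 to 131, with 5 higher and 2 lower. Sums are carried by the brightest probes, and in the other lists they ran against most members. The 8 primitive blood markers summed to 4915 to 5805 on replicate 1 and to 6686 to 7750 on the others, while 5 of them were higher on replicate 1 and 1 lower (median log2 difference 0.86). The 9 neural tube markers summed to 33.1 to 37.6 against 21.9 to 31.4, while 2 were higher and 4 lower (median -0.85). The 10 PSM markers summed to 1514 to 1598 against 1580 to 1792, while 6 were higher and 2 lower (median 0.55). Of the other cell cycle genes, 64 of 96 (66.7%) passed the F-test, 53 higher and 11 lower on replicate 1, where 36.8% of named genes and 61.0% of those over 10 did. The share of named genes higher or lower on both replicate 1 arrays than on all others was not determined. The part of tissue makeup in the replicate difference was not tested.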

How the data were processed

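Arrays of 3 wild-type and 3 knockout samples, grouped by the labels, were used. Per the labels' protocols, total RNA was made into digoxigenin-labelled cRNA and hybridised to Applied Biosystems AB1700 one-colour arrays; the labels name a human array, while organism and probe annotation are mouse. The deposited values are intensities that the authors had scaled to a common median without equalising the spread; no source used here names the software, background correction or filter, and each of these bears mostly on dim probes. Of 33012 probes, 14411 had 1 gene, 247 several and 18354 none in the annotation table.

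Intensities were taken to log2 with no offset or filter. Genotypes were compared with limma 3.58.1 in R 4.3.3 (lmFit, eBayes with an intensity trend), two-sided, Benjamini-Hochberg over all probes, threshold 0.05, with 4 residual degrees of freedom; the blocked fit has 2. Single genes also had exact permutation tests. The fits were tested on simulated data. Same-numbered arrays had deviations from their group means that correlated by 0.757, 0.442 and 0.374. Pairing by number was accepted under a rule on the size of these values. Deviations within a group sum to 0, so with replicate 1 apart in both genotypes the rule could not decide how arrays 2 and 3 match. Across numbers 2 and 3 the correlations were 0.397 and 0.419 (over the 41 genes 0.758 and 0.760, above 0.684 and 0.641 within the numbers). Pairs 2 and 3 could be matched otherwise. Signs within them, and their matching in the blocked fit, rest on the number alone. The members, lists and tests were chosen with earlier results of these data known. Values on every array are given for up to 4 genes with the smallest unblocked p in each role, genes without overlap, reference genes (Ccnd1, Ccnd2, Cdkn1b, Cdkn1c, Pcna, Mcm2, Cdk1, Top2a) and the 5 smallest p for the replicate number; Bub1 was added after its values were seen. Other pathway genes are named where among the 2 smallest p of their role or below 0.05 unadjusted with the block. Alternatives were other scalings, log2(intensity + 1), a filter on dim probes, the variance prior, array weights, probe averaging and leaving out arrays. Tables and figures used Python 3.11.15, pandas 2.3.3, numpy 2.4.6 and matplotlib 3.10.9.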

Additional observations from a re-analysis of the deposited data

How the results depend on the processing

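No alternative put a cell cycle gene past an adjusted p of 0.05 between genotypes in limma. Probes past it numbered 0 as reported, 2 with the replicate block, 1 with array weights, 2 without replicate 1 in both genotypes and 0 to 0 with single arrays left out. Probes at an unadjusted p under 0.05 numbered 217 as reported, 1238 with the replicate block (1492 without an intensity trend as well), 333 without the trend, 47 after centring on 75th percentiles, 529 under quantile normalization, 60 among probes above a mean of 1, 3145 with array weights, 1407, 98 and 83 without replicate 1, 2 or 3 in both genotypes, and 156 to 993 with single arrays left out. Of the cell cycle genes this applied to 0 as reported, 2 with the block but 0 with the block and no intensity trend, and 3 with array weights (Rb1, Tyms and Cdk1). Without the block it was 1 without replicate 1 (Cdkn1a), and 0 to 2 with single arrays left out (Ccnd1 without wild-type replicate 3, Cdkn1a and Tyms without knockout replicate 1). With the block, Ccnd1 was also below it under centring, quantile normalization and log2(intensity + 1), among probes above a mean of 1, and without replicate 1 or 3. Cdkn1a was below it under centring, under quantile normalization and without replicate 1. Rrm1 was below it in the blocked fits that left out the replicate 1 array of 1 genotype.

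With single arrays left out, the median log2 difference ran from -0.23 to 0.27 over all genes, -0.29 to 0.37 over G1 cyclins and kinases, -0.39 to 0.38 over G1 brakes, -0.050 to 0.19 over licensing, -0.85 to 0.11 over fork and nucleotide genes, -0.45 to 0.24 over mitotic entry and -0.28 to 0.28 over chromosome and spindle genes. The extremes came where a replicate 1 array was missing from 1 genotype, except for the low end of the G1 brakes (knockout replicate 3) and the high ends of the fork and of the chromosome genes (knockout replicate 2). The median of the 4 G1 brakes was 0.075 with 75th percentile centring, 0.16 with quantile normalization, and 0.12 and -0.47 without replicate 1 or 3. The filter on probes above a mean of 1 dropped Cdkn1b and Rb1, so its median of -0.48 rests on Cdkn1a and Cdkn1c alone. Of 30 genes with full values, 26 kept their sign where no array was left out; the exceptions were Pcna (-0.053) and Cdk4 (-0.0049) under quantile normalization, Bub1b (0.040) under centring, and Mcm2 (0.030 under centring, 0.013 under quantile normalization and 0.013 with log2(intensity + 1)). Without replicate 1 in both genotypes the sign turned for Ccnd2 (-0.12), Rrm2 (-0.18), Plk1 (-0.014) and Cdk4 (-0.14). Without replicate 2 it turned for Cdk6 (-0.0032), Pcna (-0.0089), Plk1 (-0.055), Ttk (0.22), Mcm2 (0.34), Ccnd3 (-0.38) and Bub1b (0.064), and without replicate 3 for Rb1 (-0.76), Cdk1 (-0.49), Top2a (0.089) and Bub1b (0.020). The cause was not tested.

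With single arrays left out, 8 of the 30 kept their sign throughout: Ccnd1 (0.22 to 0.99), Cdc25a (0.073 to 0.27), Cdkn1a (-2.0 to -0.028), Cdkn1b (0.47 to 0.76), Gmnn (0.081 to 0.28), Mcm5 (0.073 to 0.12), Tyms (-1.24 to -0.24) and Aurkb (0.094 to 0.16). For Cdkn1b, Mcm5 and Aurkb this follows from groups without overlap. The others ran from -0.99 to 0.48 (Aurka), -0.23 to 0.33 (Birc5), -0.70 to 0.57 (Bub1b), -0.69 to 0.33 (Ccna2), -0.44 to 0.37 (Ccnd2), -1.66 to 1.89 (Ccnd3), -0.45 to 0.24 (Cdc25b), -0.14 to 1.14 (Cdk1), -0.71 to 0.58 (Cdk4), -0.11 to 0.20 (Cdk6), -0.52 to 0.30 (Cdkn1c), -0.19 to 0.36 (Cdt1), -0.18 to 0.41 (Mad2l1), -1.27 to 0.98 (Mcm2), -0.057 to 0.31 (Mcm4), -0.18 to 0.19 (Pcna), -0.014 to 0.17 (Plk1), -0.50 to 0.73 (Rb1), -2.23 to 0.62 (Rrm1), -0.46 to 0.40 (Rrm2), -0.88 to 0.59 (Top2a) and -1.02 to 0.30 (Ttk). The replicate block leaves each difference as it is and changed no adjusted call of a cell cycle gene.

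For the replicate number, 9166 probes passed as reported, 17677 after centring on 75th percentiles, 4821 to 10043 with single arrays left out and 4 without replicate 1 in both genotypes; of cell cycle genes 26 passed, 21 to 27 with single arrays left out and 0 without replicate 1. These alternatives of the F-test were added after the data were seen, apart from the scalings. The number of arrays limits the precision, and the 7 genes below the array median on at least 1 array are the least certain.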
